A study of Mus musculus with 19 samples.

Results

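The 38 genes described here encode the machinery of autophagy and the lysosome. They were taken as a fixed list of gene symbols, matched by symbol in deposited RNA sequencing tables of mouse cornea and conjunctiva, and 38 of 38 were found among 24552 gene symbols in each table. The libraries came from adult female mice, labelled C57BL/6 and given as C57BL/6J in the study's methods, that either ate freely (ad libitum, AL) or were kept on calorie restriction (CR), with 5 AL and 5 CR libraries from cornea and 4 AL and 5 CR libraries from conjunctiva. In the study's methods, the CR ration was cut stepwise and given once a day, just before the dark phase, for some months. The labels name no genotype for either group. The sample titles all carry the marks 6M and 50W, whose meaning is not given. The methods describe 2 cohorts kept at different sites, and in 1 of them the CR chow was also enriched in vitamins and micronutrients. The labels do not say which cohort gave these libraries, nor whether each library came from a separate mouse, so the p-values measure the spread between these libraries.

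The corneal material was epithelium scraped from the eye, and the conjunctiva was excised whole. *Krt12*, the keratin of corneal epithelium, stood at 179846 to 340965 normalized counts in the cornea libraries and at 436 to 5139 in the conjunctiva libraries. *Muc5ac*, the gel-forming mucin of goblet cells, stood at 2328 to 6593 normalized counts in the conjunctiva and at 0 to 43.3 in the cornea. A normalized count is the number of reads on a gene divided by a size factor of its library, set by the authors within each tissue, so levels of the 2 tissues are set side by side here without a test. The cornea libraries held 10354377 to 14681466 counted reads each, and the conjunctiva libraries 10727077 to 14433802. Genes with no read made up 38.7% to 47.6% of a cornea library and 33.6% to 40.1% of a conjunctiva library. In the cornea this share was lower in 4 AL libraries (38.7% to 40.7%) than in 4 CR libraries, but AL 4 stood at 45.2% and CR 1 at 39.9%, each among the libraries of the other diet.

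Autophagy encloses parts of the cytoplasm in a double membrane, the autophagosome, and delivers them to the lysosome, where acid hydrolases break them down for reuse. The ULK1 kinase complex starts the process when nutrients are scarce, a lipid kinase complex marks the site, and ubiquitin-like conjugation attaches proteins of the ATG8 family to the growing membrane. Receptor proteins tie cargo such as damaged mitochondria to the ATG8 proteins. The transcription factors TFEB and TFE3 switch on many lysosomal and autophagy genes. In stratified epithelia, autophagy and lysosomes take part in the clearance of organelles as cells differentiate and are shed. Much of the control of autophagy acts on proteins and on flux through the pathway, which mRNA levels do not measure.

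All 38 genes passed the filter of a mean of 10 normalized counts in both tissues and were tested. In the cornea, none was called changed between CR and AL (an adjusted p by Benjamini-Hochberg of less than 0.05 together with a fold over 1.5), against 1.22% of the 12278 genes tested, and none passed the adjusted p alone, against 1.53%. The smallest adjusted p was 0.0785, for *Hexa*. At an unadjusted p under 0.05, 2 of the 38 were higher in CR (*Bnip3* and *Wipi1*; 8.52% of all genes) and 4 were lower (*Hexa*, *Mcoln1*, *Vps18* and *Nbr1*; 9.55% of all genes). Together these 6 made up 15.8% of the 38 genes, beside 18.1% of all genes tested. *Hexa* was the only one of the 38 with no overlap between AL and CR cornea libraries, against 3.97% of all genes.

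In the conjunctiva, none of the 38 was called or passed the adjusted p alone, against 0.359% of the 13929 genes tested by either rule. At an unadjusted p under 0.05, none was higher (4.53% of all genes) and 1, *Vps18*, was lower (4.87% of all genes). *Vps18* was also the only one without overlap between the diets, against 3.87% of all genes. The log2 changes of the 38 genes, CR minus AL, had a median of −0.08 for cornea and 0.03 for conjunctiva, beside −0.03 and −0.02 over all genes tested. The cornea had 15 genes higher and 23 lower in CR, with log2 changes from −0.76 to 1.58. The conjunctiva had 23 higher and 15 lower, from −0.48 to 0.40, and quantile normalization moved the number higher there from 23 to 18. When each library's percentage of unread genes entered the fit as a covariate, the cornea had 19 of 38 higher and its median was −0.0024.

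**Figure D1:**
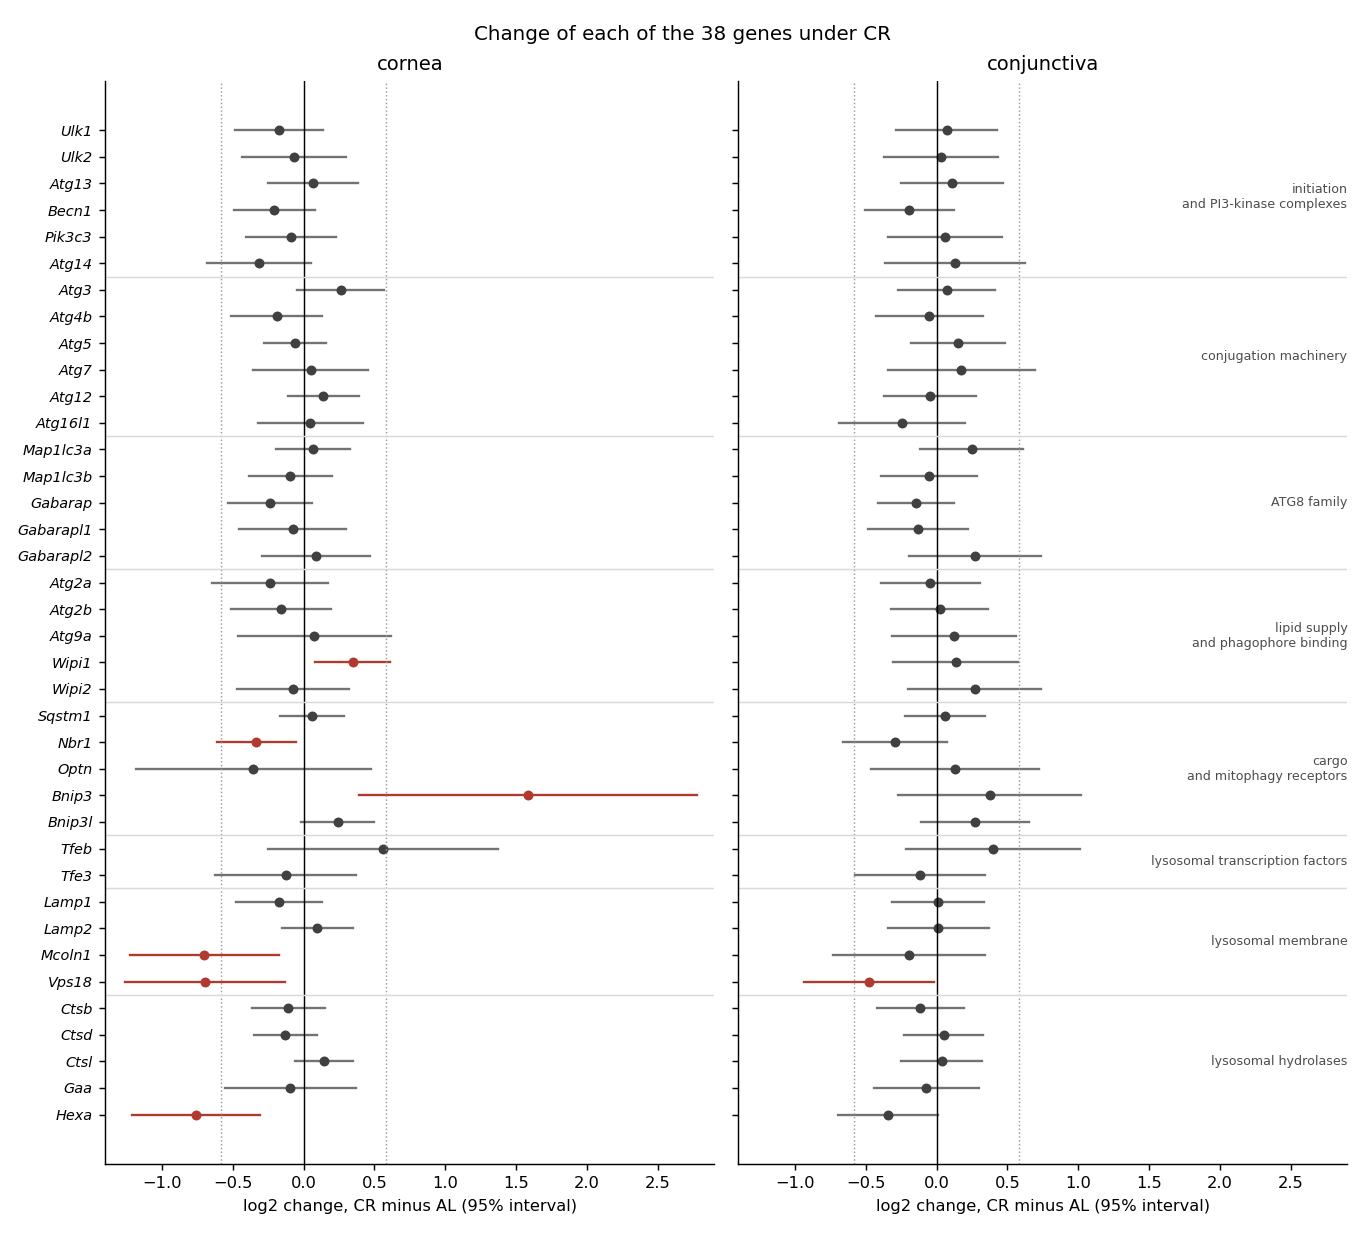
Log2 change (CR minus AL, horizontal axis) of each of the 38 genes in cornea (left) and conjunctiva (right), grouped by role, with 95% intervals that are not adjusted for the number of genes; dotted lines mark a 1.5-fold change either way, and red marks intervals that exclude 0. Red intervals number 6 in the cornea and 1 in the conjunctiva, and *Bnip3* in the cornea has the widest interval, from 0.39 to 2.77.

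How small a change the libraries could show varied by gene. Standard errors of the log2 change lay between 0.0989 and 0.569 in the cornea (median 0.153), and between 0.126 and 0.298 in the conjunctiva (median 0.172). The 95% interval, unadjusted for the number of genes, lay within a 1.5-fold change in either direction for 26 of the 38 genes in the cornea and 24 in the conjunctiva. For 32 and 36 genes it lay within a 2-fold change. Averaged over the 38 genes after centering each one, the log2 level per library ran from −0.017 to 0.082 in AL and from −0.13 to 0.075 in CR cornea, and the ranges overlapped. In the conjunctiva it ran from −0.046 to 0.030 in AL and from −0.085 to 0.14 in CR, where CR 3 stood highest and CR 4 lowest.

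**Figure D2:**
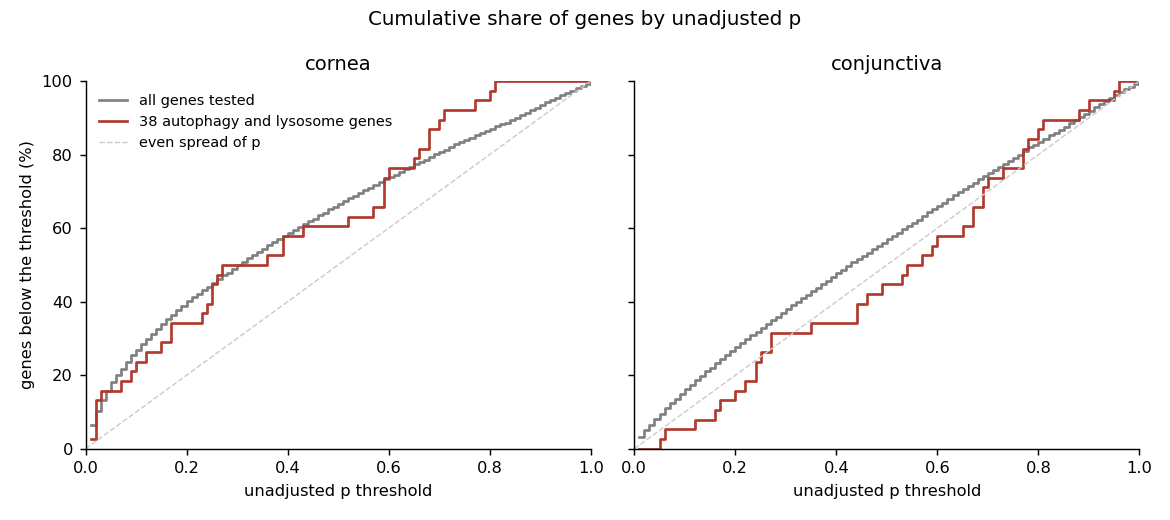
Percentage of genes (vertical axis) whose unadjusted p lies below the threshold on the horizontal axis, for all genes tested (grey) and the 38 autophagy and lysosome genes (red), with a dashed line for an even spread. In the cornea the red line crosses the grey one, with 15.8% of the 38 genes against 18.1% of all genes under 0.05 and 100% against 87.7% under 0.81, and in the conjunctiva it lies below the grey line up to a threshold of 0.76, with 2.63% under 0.05.

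The lysosomal genes held the lowest changes in both tissues. *Hexa* encodes the alpha subunit of beta-hexosaminidase, which degrades the ganglioside that accumulates in Tay-Sachs disease. In the cornea, its normalized counts were 217, 169, 241, 195 and 268 in AL libraries 1 to 5 and 124, 146, 144, 165 and 76.2 in CR libraries 1, 2, 3, 4 and 7. Every CR library lay below every AL library. The means were 218 ± 38.4 in AL and 131 ± 33.8 in CR (SD, n = 5 each), a log2 change of −0.76 ± 0.22 (SE, adjusted p = 0.0785). It was −0.62 (adjusted p = 0.320) with the percentage of unread genes as a covariate. In the conjunctiva, *Hexa* stood at 929, 627, 695 and 595 in AL 1, 3, 4 and 5 and at 560, 541, 697, 476 and 510 in CR 1 to 5. There 4 of 5 CR libraries lay below the lowest AL library, while CR 3 matched AL 4, and the log2 change was −0.34 ± 0.17 (SE, adjusted p = 0.538). An exon of *Hexa* overlaps one of *Tmem202* on the opposite strand, and whether counting used strand is not settled.

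*Vps18* encodes a core subunit of the complexes that tether late endosomes and autophagosomes to lysosomes. Its cornea counts were 90.2, 105, 62.2, 85.8 and 129 in AL and 65.7, 56.5, 55.3, 70.5 and 39.0 in CR, so that 3 of 5 CR libraries fell under the whole AL range. The log2 change was −0.69 ± 0.27 (SE, adjusted p = 0.191), or −0.52 with the percentage of unread genes as a covariate. In the conjunctiva the counts were 127, 151, 180 and 169 in AL and 96.4, 120, 124, 118 and 102 in CR. All 5 CR libraries lay below all 4 AL libraries there, with CR 3 only just under AL 1, and the log2 change was −0.48 ± 0.22 (SE, adjusted p = 0.507).

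*Mcoln1* encodes the calcium channel TRPML1 of the lysosomal membrane. In the cornea it stood at 166, 107, 171, 100.8 and 157 normalized counts in AL and at 130, 99.9, 74.2, 67.4 and 63.2 in CR. CR 1 lay inside the AL range and the other 4 CR libraries below it, and the log2 change was −0.70 ± 0.25 (SE, adjusted p = 0.160), or −0.38 with the percentage of unread genes as a covariate. In the conjunctiva the diets overlapped, with 148 to 237 in AL and 99.7 to 227 in CR, and a log2 change of −0.19 ± 0.25 (SE).

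None of the more heavily counted lysosomal genes passed a test. *Lamp1* and *Lamp2* encode the main glycoproteins of the lysosomal membrane, and their log2 changes were −0.17 and 0.10 in the cornea and 0.009 and 0.01 in the conjunctiva. The proteases *Ctsb*, *Ctsd* and *Ctsl* had cornea log2 changes of −0.11, −0.13 and 0.14 and conjunctiva changes of −0.12, 0.05 and 0.03. *Ctsl* stood at 6745 ± 311 normalized counts in AL cornea and 7482 ± 843 in CR cornea (SD, n = 5 each). *Gaa*, the acid alpha-glucosidase that degrades glycogen in the lysosome, had log2 changes of −0.09 and −0.07. For each of *Lamp1*, *Lamp2* and the 3 proteases the 95% interval lay within a 1.5-fold change in both tissues.

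Among receptors, *Bnip3* and *Bnip3l* encode outer mitochondrial membrane proteins that tie mitochondria to ATG8 proteins. *Bnip3* was scarce in the cornea, with 7, 4, 6, 35 and 22 reads in AL and 20, 55, 45, 36 and 42 in CR. As normalized counts these were 7.70, 4.37, 6.55, 30.9 and 22.7 in AL and 21.9, 51.8, 34.1, 36.8 and 39.0 in CR. AL 4 and AL 5 lay above CR 1, and the other 4 CR libraries stood above every AL library. The log2 change was 1.58 ± 0.57 (SE, adjusted p = 0.162), and 0.74 (adjusted p = 0.719) with the percentage of unread genes as a covariate. An exon of *Bnip3* overlaps the gene model *Gm45507* on the opposite strand. In the conjunctiva, whose normalized counts for *Bnip3* ran from 174 to 437 in AL and from 253 to 667 in CR, the log2 change was 0.37 ± 0.30 (SE, adjusted p = 0.746). CR 3, the highest conjunctiva library for *Bnip3*, also had the highest sum of 8 skeletal muscle markers (128233 normalized counts, against 12586 to 75053 in the other conjunctiva libraries), and the part of muscle in this value was not tested.

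*Bnip3l* had cornea counts of 737, 598, 585, 854 and 651 in AL and 796, 816, 850, 787 and 758 in CR. AL 4 was the highest of the 10, and the other 4 AL libraries lay below all CR libraries, with a log2 change of 0.24 ± 0.12 (SE, adjusted p = 0.317). In the conjunctiva it stood at 476, 353, 415 and 491 in AL and 496, 438, 450, 508 and 758 in CR. There 3 CR libraries exceeded the AL range, and the log2 change was 0.27 ± 0.18 (SE, adjusted p = 0.686). With the percentage of unread genes as a covariate, *Bnip3l* had 0.13 (cornea) and 0.085 (conjunctiva).

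*Nbr1* encodes a receptor for ubiquitin-tagged cargo and peroxisomes. Its cornea counts were 841, 766, 779, 590 and 720 in AL and 741, 528, 568, 576 and 520 in CR. CR 1 stood within the AL range and the other 4 CR libraries below it, and the log2 change was −0.33 ± 0.13 (SE, adjusted p = 0.200). With the percentage of unread genes as a covariate, *Nbr1* had −0.085 (cornea) and −0.098 (conjunctiva). In the conjunctiva it stood at 695, 952, 1019.9 and 606 in AL and 647, 646, 810, 571 and 612 in CR, with overlapping diets and a log2 change of −0.29 ± 0.17 (SE, adjusted p = 0.630). *Sqstm1*, the p62 receptor whose protein is itself degraded by autophagy, had log2 changes of 0.06 ± 0.11 and 0.06 ± 0.13 (SE) in cornea and conjunctiva. *Optn*, a receptor used in mitophagy, had changes of −0.35 ± 0.40 and 0.13 ± 0.28 (SE).

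**Figure D3:**
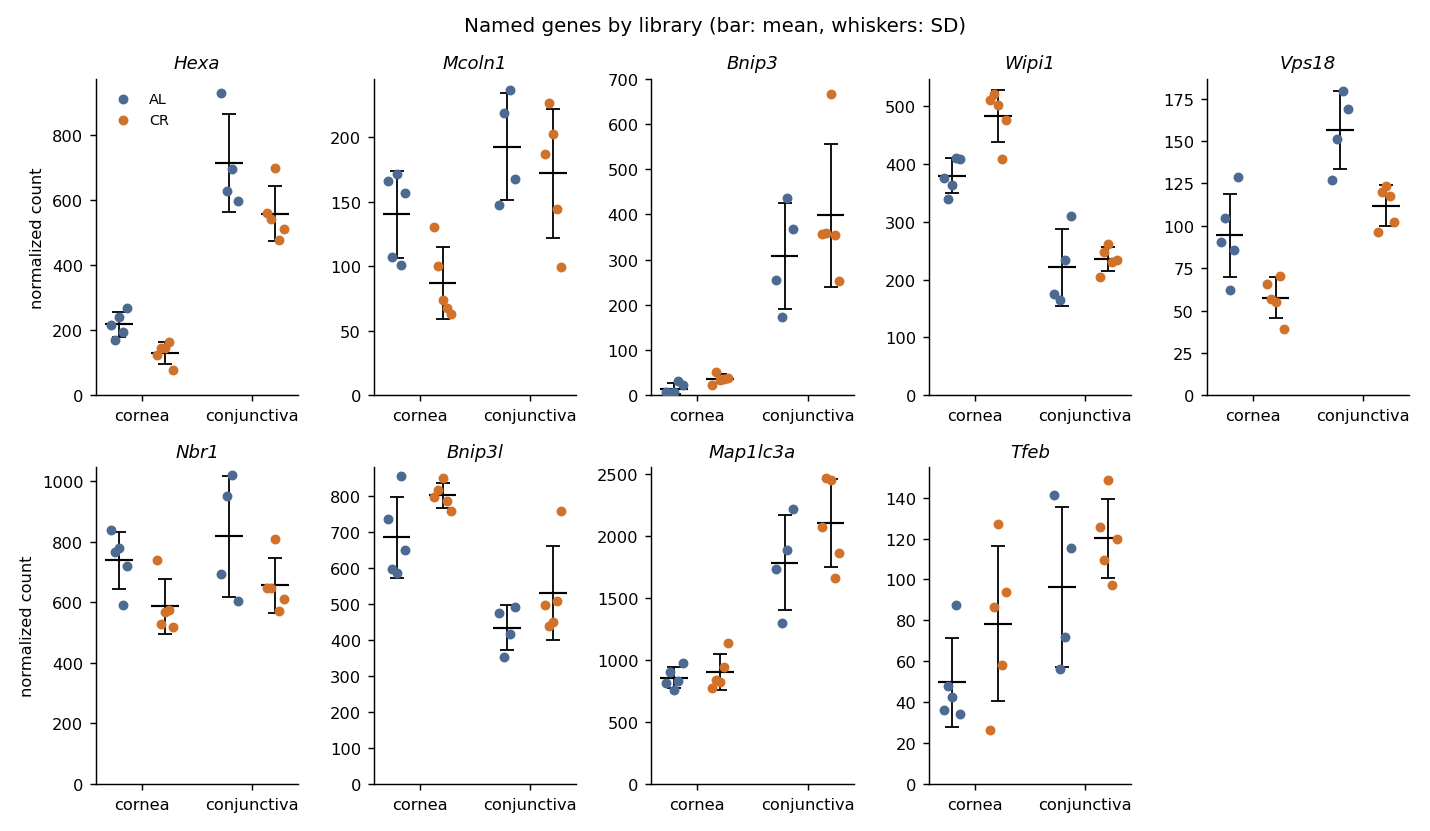
Normalized counts (vertical axes, starting at 0) in each AL (blue) and CR (orange) library of cornea and conjunctiva for the 9 genes described library by library, with the mean as a bar and the SD as whiskers. The diets separate fully for *Hexa* in the cornea and for *Vps18* in the conjunctiva, and overlap in the other panels' groups.

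*Tfeb* and *Tfe3* encode the transcription factors of lysosomal and autophagy genes. In the cornea *Tfeb* stood at 36.3, 48.1, 42.6, 87.5 and 34.0 normalized counts in AL and at 26.3, 86.7, 127, 58.2 and 93.8 in CR. CR 1 was the lowest of all and AL 4 stood among the CR libraries, and the log2 change was 0.56 ± 0.39 (SE, adjusted p = 0.461), which turned to −0.26 with the percentage of unread genes as a covariate. In the conjunctiva it stood at 141, 56.1, 72.1 and 115 in AL and 126, 109, 149, 97.3 and 120 in CR, with AL 1 near the top of the CR range and a log2 change of 0.40 ± 0.29 (SE, adjusted p = 0.713). *Tfe3* had log2 changes of −0.13 ± 0.24 and −0.12 ± 0.22 (SE).

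Genes that start autophagy showed no change that passed the test. The kinase genes *Ulk1* and *Ulk2* had cornea log2 changes of −0.17 and −0.07 and conjunctiva changes of 0.07 and 0.03, and *Atg13*, an ULK1 partner, had 0.07 and 0.11. For the lipid kinase complex, *Becn1* had −0.21 and −0.19, the catalytic subunit gene *Pik3c3* −0.09 and 0.06, and *Atg14*, which directs the complex to autophagosome sites, −0.32 and 0.13. Of these 6 genes, 1 was higher in CR in the cornea and 5 in the conjunctiva.

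No gene of the lipidation step passed the test either. *Atg3*, the E2-like enzyme of the ATG8 proteins, had the largest of these changes in the cornea, 0.26 ± 0.15 (SE, adjusted p = 0.357), and 0.07 in the conjunctiva. *Atg5*, *Atg12* and *Atg16l1*, whose products form the lipidation complex, had cornea log2 changes of −0.06, 0.14 and 0.05 and conjunctiva changes of 0.15, −0.05 and −0.24. *Atg7*, the E1-like enzyme, had 0.05 and 0.17, and the processing protease gene *Atg4b* −0.19 and −0.05. *Atg5* in the cornea had one of the narrowest intervals of the 38, from −0.28 to 0.16.

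The ATG8 genes encode the ubiquitin-like proteins that coat the autophagosome membrane. *Map1lc3b*, the source of the LC3B protein used to mark autophagosomes, stood at 1753 normalized counts in AL and 1662 in CR cornea, and at 1941 and 1895 in the conjunctiva. *Map1lc3a* in the conjunctiva had counts of 1730, 1297, 1888 and 2215 in AL and 2070, 2465, 2448, 1660 and 1865 in CR. CR 2 and CR 3 exceeded the AL range, and the log2 change was 0.25 ± 0.17 (SE, adjusted p = 0.692), against 0.07 in the cornea. *Gabarap* had −0.24 and −0.15 in cornea and conjunctiva, *Gabarapl1* −0.08 and −0.13, and *Gabarapl2* 0.09 and 0.27.

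**Figure D4:**
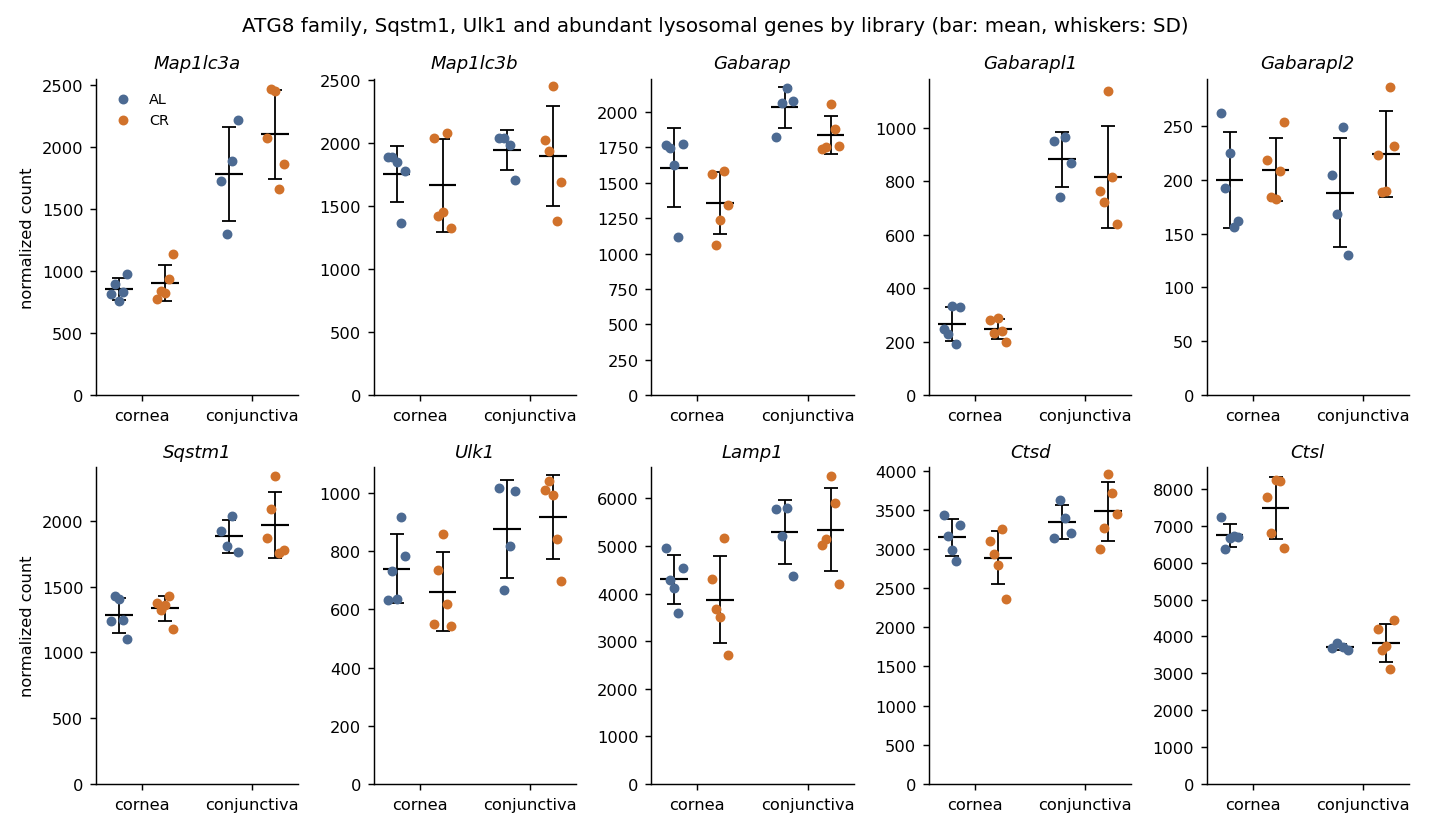
Normalized counts (vertical axes, starting at 0) in each AL (blue) and CR (orange) library of cornea and conjunctiva for the 5 ATG8 family genes, *Sqstm1*, *Ulk1*, *Lamp1*, *Ctsd* and *Ctsl*, with the mean as a bar and the SD as whiskers. AL and CR libraries overlap in every panel, while *Ctsl* stands higher in the cornea table and *Map1lc3a*, *Gabarapl1* and *Sqstm1* in the conjunctiva table.

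*Wipi1* and *Wipi2* encode proteins that bind the lipid mark on the growing membrane. *Wipi1* in the cornea stood at 376, 339, 363, 409.4 and 408.9 normalized counts in AL and 510.4, 520.2, 502, 408 and 476 in CR. CR 4 lay just under the highest AL libraries and the other 4 CR libraries above all of AL. Means were 379 ± 30.4 in AL and 483 ± 45.2 in CR (SD, n = 5 each). The log2 change of *Wipi1* was 0.35 ± 0.13 (SE, adjusted p = 0.170), or 0.28 with the percentage of unread genes as a covariate. In the conjunctiva its change was 0.14 ± 0.21 (SE), and *Wipi2* had changes of −0.08 and 0.27 in cornea and conjunctiva. The lipid transfer genes *Atg2a* and *Atg2b* had −0.24 and −0.16 in the cornea and −0.04 and 0.02 in the conjunctiva, and *Atg9a*, the lipid scramblase of the seed vesicles, 0.08 and 0.12.

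To ask whether CR acted alike in the 2 tissues, the cornea log2 change was subtracted from the conjunctiva log2 change for each of the 11929 genes tested in both. This test treated the tissues as independent. The study's methods say that several tissues were taken from each mouse, and the labels do not say whether these libraries share mice. Of the 38 genes, none passed an adjusted p of 0.05 and none had an unadjusted p under 0.05, a level that 7.48% of all these genes reached. *Bnip3* had the smallest p, with a change 1.21 ± 0.64 (SE) lower in the conjunctiva than in the cornea on the log2 scale (adjusted p = 0.684). For *Hexa* the change was 0.42 ± 0.27 (SE) higher in the conjunctiva (adjusted p = 0.751). The direction was the same in both tissues for 26 of the 38 genes (68.4%), 13 higher and 13 lower, and for 59.9% of all genes tested in both. *Hexa*, *Vps18*, *Nbr1* and *Mcoln1* were among those lower in both, and *Bnip3*, *Bnip3l*, *Tfeb* and *Wipi1* among those higher in both. With the percentage of unread genes as a covariate, *Tfeb* changed direction in the cornea and *Mcoln1* in the conjunctiva.

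The start regions of the genes were searched for the E-box core CACGTG, and for TCACGTG on either strand, the longer form described for promoters that TFEB and TFE3 bind. Clock factors bind the same core. Windows from 250 bases before to 50 after the RefSeq start (GRCm38.p6) were at hand for 31 of the 38 genes. CACGTG occurred in 10 of these (32.3%, against 9.17% of all 17776 genes with a window), namely *Atg14*, *Atg3*, *Atg5*, *Atg7*, *Bnip3*, *Lamp1*, *Mcoln1*, *Ctsd*, *Ctsl* and *Gaa*. The longer TCACGTG, which contains the core, occurred in 7 (22.6%, against 5.11%), and the palindrome TCACGTGA in 3 (9.68%, against 1.46%). Shown are the 120 bases before the start, 5′ to 3′ on the strand of the gene, for *Mcoln1* and *Ctsd*, which hold the palindrome, for *Lamp1*, which holds the most cores, and for *Hexa*, which has none, with CACGTG in capitals.
Mcoln1 (chr8:3500399-3500518, plus strand): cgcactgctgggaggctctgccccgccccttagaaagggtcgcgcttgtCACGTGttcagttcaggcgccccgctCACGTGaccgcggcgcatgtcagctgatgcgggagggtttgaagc
Ctsd (chr7:142387828-142387947, minus strand): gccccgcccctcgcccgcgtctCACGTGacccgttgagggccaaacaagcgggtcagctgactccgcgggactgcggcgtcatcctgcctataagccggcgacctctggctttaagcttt
Lamp1 (chr8:13159041-13159160, plus strand): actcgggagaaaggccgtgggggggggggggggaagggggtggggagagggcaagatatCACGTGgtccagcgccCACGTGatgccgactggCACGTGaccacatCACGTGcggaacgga
Hexa (chr9:59539420-59539539, plus strand): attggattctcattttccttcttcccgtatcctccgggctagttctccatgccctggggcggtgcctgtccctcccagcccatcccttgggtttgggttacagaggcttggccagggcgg
The core occurs 2 times in the *Mcoln1* stretch, 1 time in that of *Ctsd* and 4 times in that of *Lamp1*. The 7 genes with TCACGTG had a median log2 change of −0.13 in the cornea, where 2 were higher and 5 lower in CR, and of 0.05 in the conjunctiva, where 5 were higher and 2 lower. The 24 genes with a window that lacked it had medians of −0.08 and 0.03. A match of letters is a description of the window and not evidence of binding.

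Another 165 genes of the same pathway were listed in both tables, in groups for autophagosome assembly, cargo receptors, fusion, the vacuolar ATPase, lysosomal hydrolases, lysosomal membrane, and control of TFEB and ULK1. Of the 150 tested in the cornea and the 157 tested in the conjunctiva, none passed the adjusted p. At an unadjusted p under 0.05, 10 were higher and 7 lower in the cornea, and 5 were higher and 7 lower in the conjunctiva. These are 11.3% and 7.64% of the genes tested from the lists, beside 18.1% and 9.40% of all genes. In the cornea 1 of the 150 had diets that did not overlap, and in the conjunctiva 3 of the 157, beside 3.97% and 3.87% of all genes. Their median log2 changes were −0.01 and −0.02. In the cornea the 6 with the smallest p were split in direction. *Ctns*, the lysosomal cystine exporter, stood at 215 ± 29.7 normalized counts in AL and 136 ± 34.8 in CR (SD, n = 5 each). Its log2 change was −0.68 ± 0.20 (SE, adjusted p = 0.0847). *Neu1*, lysosomal sialidase, had −0.66 ± 0.20 (SE, adjusted p = 0.109). *Atp6ap1*, an accessory protein of the vacuolar ATPase, had −0.63 ± 0.19 (SE, adjusted p = 0.121), and *Idua*, which degrades glycosaminoglycans, −0.86 ± 0.29 (SE, adjusted p = 0.144). The 2 others were higher in CR. *Fkbp8*, a mitophagy receptor, had 0.45 ± 0.13 (SE, adjusted p = 0.0812). *Asah1*, acid ceramidase, stood at 132 to 148 normalized counts in AL and 167 to 256 in CR, so that the diets did not overlap, with a change of 0.56 ± 0.17 (SE, adjusted p = 0.115). With the percentage of unread genes as a covariate, *Ctns* had −0.35, *Neu1* −0.24, *Atp6ap1* −0.23, *Fkbp8* 0.23 and *Asah1* 0.57. Without AL 4, *Ctns*, *Neu1*, *Atp6ap1* and *Fkbp8* passed the adjusted p (0.034, 0.0199, 0.0056 and 0.0182). Calls over all genes then went from 150 to 536. *Ctns* and *Neu1* also passed without CR 1 (0.0275 and 0.0391), with 309 calls over all genes. Their adjusted p rose to 0.218 (*Ctns*) without AL 2 and to 0.259 (*Neu1*) without AL 5. Over the 6 genes named here, the conjunctiva change minus the cornea change ran from −0.59 (*Asah1*) to 1.02 (*Idua*), none past the adjusted p. Exons of *Fkbp8* and *Idua* overlap other genes on the opposite strand.

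In the conjunctiva, the 6 other pathway genes with the smallest p were *Laptm5*, *Mlst8*, *Atp6v0d2*, *Pla2g15*, *Npc1* and *Galc*. *Laptm5*, a lysosomal membrane protein of blood cells, stood at 565 ± 102 in 4 AL libraries and 352 ± 119 in 5 CR libraries (SD), with a log2 change of −0.73 ± 0.22 (SE, adjusted p = 0.229), or −0.90 (adjusted p = 0.0362) without CR 3. *Npc1*, which exports cholesterol from the lysosome, stood at 541 to 628 in AL and 661 to 859 in CR without overlap, with 0.37 ± 0.14 (SE, adjusted p = 0.355). Its cornea change was 0.38. For the others tested in both tissues, the conjunctiva change minus the cornea change was 0.03 (*Laptm5*), −0.83 (*Mlst8*), −0.49 (*Pla2g15*) and −0.51 (*Galc*). None of these differences passed the adjusted p. *Galc*, which degrades galactolipids, stood at 138 to 188 in AL and 76.5 to 130 in CR without overlap, with −0.64 ± 0.24 (SE, adjusted p = 0.395). *Mlst8*, a subunit of both mTOR complexes, had −0.87, *Atp6v0d2*, a vacuolar ATPase subunit of restricted tissues, 1.12, and the lysosomal phospholipase gene *Pla2g15* −0.77, with adjusted p values of 0.235, 0.304 and 0.350. *Mlst8* had −0.53 with the percentage of unread genes as a covariate. Exons of *Npc1*, *Galc* and *Mlst8* overlap other genes on the opposite strand, and whether counting used strand is not settled.

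Markers of other cells moved beside some of these genes. In the conjunctiva, 14 of 14 macrophage markers were lower in CR, none of them called, with a median log2 change of −0.48. Their summed level was 5363 to 6500 normalized counts in AL and 4109 to 4635 in CR, without overlap, and no marker of the list was at 0 in all libraries. Taken singly, 1 of the 14 did not overlap between diets, beside 3.87% of all genes. Of 10 fibroblast markers 10 were lower, 2 of them called (0.359% of all genes), with sums of 43012 to 64138 in AL and 28379 to 54875 in CR. Of 8 skeletal muscle markers 8 were higher in CR, none of them called, with a median log2 change of 0.51. In bulk tissue, fewer cells of a type and less RNA per cell cannot be told apart. The part of these cells in the values of *Hexa*, *Vps18*, *Laptm5* and *Galc* was not tested. In the cornea the macrophage sums overlapped, with 1115 to 1541 in AL and 882 to 2233 in CR. There 5 of the 14 markers did not pass the filter, and 8 of the 9 tested were lower. Among these 1, *C1qa*, was called (−1.58, adjusted p = 0.0467), beside 1.22% of all genes. It was also the 1 marker that did not overlap between diets, beside 3.97% of all genes. Of the 7 conjunctival epithelium markers, 3 did not pass the filter in the cornea. The 4 tested there were higher in CR, none of them called, with a median of 0.48. Cornea CR 7 had the highest sums of conjunctival epithelium markers (63520, others 25662 to 42004) and of macrophage markers (2233, others 882 to 1541), and the lowest of corneal epithelium markers (481422, others 571706 to 700995). It was also the lowest of the 10 cornea libraries for *Hexa*, *Vps18*, *Mcoln1* and *Nbr1*, whose log2 changes without it were −0.58, −0.57, −0.60 and −0.29. The part of other cells in these values was not tested. Lacrimal gland markers summed to 10463 normalized counts in cornea AL 1 and to 56.7 to 395 in the other 9 cornea libraries. Apart from AL 1, these sums were 94.6 to 346 in AL and 56.7 to 395 in CR cornea. Of the 8 markers listed, 4 passed the filter in the cornea and 4 did not. The filter took the mean over both diets, and AL 1 raised it, so the direction of those that passed is no result about diet. The 4 tested were lower in CR, with a median log2 change of −2.50. Among them 1 was called (1.22% of all genes) and 1 did not overlap between diets (3.97% of all genes). Without AL 1, *Hexa*, *Mcoln1* and *Bnip3* had cornea log2 changes of −0.76, −0.63 and 1.46.

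Weighting libraries by their scatter within a diet (array weights), or leaving 1 out, changed the cornea counts. The lowest weights fell on CR 7 (0.42), AL 4 (0.49) and CR 1 (0.62). In AL 4 and CR 1 the percentage of unread genes lay with the other diet, so counts from these weights are no support for a change. With array weights 4 of the 38 genes passed the adjusted p (*Hexa* 0.036, *Bnip3* 0.039, *Nbr1* 0.040 and *Mcoln1* 0.044), of which 3 also passed the fold, while the calls over all genes went from 150 to 705. Without AL 4, *Hexa* alone was called (adjusted p = 0.046), among 536 genes.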

How the data were processed

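Gene-level values of 19 libraries were used, in a table for each tissue. According to the study's methods, the authors trimmed single reads with cutadapt, aligned them with STAR, counted them with HTSeq and scaled them with DESeq2 size factors on the ROSALIND platform. The methods name the build mm10 and the labels GRCm39, and the 2 sources also name different library kits, so the use of strand is not settled. As deposited, a value is log2(n + 1), where n is the read count over the size factor the authors gave the library, and each tissue was scaled apart. They were turned back to normalized counts and to reads, and 100% came out within 0.1 of a whole read. A count of 0 allows up to 3 reads, and this floor covers counting error only. Of 24557 features, 5 repeated a symbol and were left out.

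Groups were taken from the labels. Diets were compared within each tissue with limma 3.58.1 (statmod 1.5.0, R 4.3.3) on log2(normalized count + 1), with an intensity trend and robust moderation, on genes averaging 10 or more. P-values were adjusted by Benjamini-Hochberg over all genes of the fit, and every adjusted p in the text is of this kind. The number added before taking logs shrinks the changes of scarce genes. The cornea log2 change of *Bnip3* was 1.64 with 0.5 added and 1.03 with 10 added. A log2 change here is a difference of mean logs, and for scarce genes it can exceed the ratio of the mean counts. Tissue differences treated the 2 tissues as independent and used Satterthwaite degrees of freedom. The 38 genes and the other lists were chosen with earlier results of these data known. All 38 are given by role, with values per library for the 6 smallest p in each tissue and any whose diets did not overlap. The other pathway genes are named by the same number of smallest p. The procedure was tested on simulated counts. Alternatives were pseudocounts of 0.5 and 10, no filter or a mean of 50, quantile and TMM scaling, array weights, voom, a covariate, no trend, a replicate block and leaving out each library. AL and CR libraries of the same number deviated with correlations of −0.30 to 0.29 (cornea) and −0.06 to 0.05 (conjunctiva), so the numbers were not taken to pair them. For cornea and conjunctiva libraries of the same diet and number, the correlations were −0.42 to 0.14. Positions, exon overlaps and start windows came from GENCODE vM21 and RefSeq for GRCm38. Of the 38 genes, 14 have an exon that overlaps another gene, and 3 of these (*Atg9a*, *Ctsd* and *Ctsl*) overlap one on the same strand.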

Additional observations from a re-analysis of the deposited data

Results flagged for a closer look

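Each of the 38 genes was searched for a library far from the rest of its group, by the gap to its neighbour over the range of the group. Of 152 groups 12 stood out, where chance gives about 7.6. Cornea AL 4 gave 5 of them. It was the lowest AL library for *Gabarap* (1117 normalized counts, next 1624), *Map1lc3b* (1364, next 1777) and *Optn* (24.8, next 79.3), and the highest for *Lamp2* (4743, next 3897) and *Tfeb* (87.5, next 48.1). In CR cornea, *Becn1* stood at 929 in CR 4 (next 735) and *Nbr1* at 741 in CR 1 (next 576). In CR conjunctiva, CR 3 was high for *Bnip3* (667, next 358) and *Ctsb* (3751, next 2889), and CR 5 for *Bnip3l* (758, next 508) and *Lamp2* (6389, next 4310). *Map1lc3b* stood at 1705 in conjunctiva AL 5 (next 1984). The test of a difference between the tissues passed for none of the 38 genes.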

How the results depend on the processing

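No gene of the 38 was called in the conjunctiva, or differed between the tissues, under any alternative run. In the cornea, the calls went from 0 to 3 with array weights, and to between 0 and 1 when 1 library was left out (1 without AL 4). Leaving out AL 4 and CR 1 together was a choice made after seeing the data. It gave 4 calls and 13 of the 38 genes at an unadjusted p under 0.05. Calls over all genes went from 150 to 1212, and 28.6% of all genes reached that unadjusted p. These 2 libraries were picked because their percentages of unread genes lay with the other diet, a measure that goes with diet, so these counts are no support for a change. With that percentage as a covariate the cornea median was −0.0024, and *Map1lc3a* had −0.027 and *Tfeb* −0.26 in the cornea. In the conjunctiva, with the same covariate, *Mcoln1* had 0.074. There 0 of the 38 genes had an unadjusted p under 0.05, beside 9.25% of all genes. Without single libraries this conjunctiva count ranged from 0 (without AL 4, CR 1, CR 2 or CR 5) to 3 (without AL 5 or CR 3). Over all genes 7.55% to 13.3% reached that level in these runs. The cornea change of *Map1lc3a* ranged from −0.018 (without CR 7) to 0.12 when 1 library was left out. With a replicate block the numbers at an unadjusted p under 0.05 were 4 in the cornea and 0 in the conjunctiva, and no gene of the 38 was called. The causes of these shifts were not tested. Reads per gene limit *Bnip3* in the cornea (4 to 55 reads per library).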

Other observations

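Among other genes of the pathway, 24 that control TFEB or ULK1 were tested in the cornea. Of these, 14 were higher and 10 lower in CR, with a median log2 change of 0.12. At an unadjusted p under 0.05 there were 5, all of them higher and none past the adjusted p. They made up 20.8% of the list, beside 8.52% of all genes higher at that level and 18.1% in either direction. These 5 were named after their values were seen. They were *Rheb*, the GTPase that activates mTORC1 (log2 change 0.43), the folliculin partners *Fnip1* (0.37) and *Fnip2* (0.39), and *Zkscan3*, a repressor of lysosomal genes (0.58). The fifth was *Foxo3*, a transcription factor of autophagy genes (1.995). It was scarce, with means of 13.4 normalized counts in AL and 33.5 in CR. In the conjunctiva 11 of the 24 tested were higher and 13 lower, with a median of −0.05. There 4 had an unadjusted p under 0.05 (16.7% of the list, beside 9.40% of all genes), none past the adjusted p. *Fnip1* (0.33) and *Foxo3* (1.56) were higher, and *Mlst8* (−0.87) and *Lamtor5* (−0.49) lower. The *Foxo3* change is imprecise, and its conjunctiva change minus its cornea change was −0.43 ± 1.07 (SE). The list was singled out after its values were seen.

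The vacuolar ATPase gene *Atp6v0c*, whose product forms the proton-conducting ring in every cell, was listed at 0 in all 19 libraries, so a listed 0 in these tables need not mean that a gene is silent.

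TCACGTG also occurred in the start windows of 27 of 137 other pathway genes (19.7%).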
